A study of Mus musculus with 96 samples.

Results

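Each RNA of this mouse brain series was hybridized to an Affymetrix 1.1ST array and to an Affymetrix 1.0ST array, and the 2 formats were compared here on the same RNA. Each of the 48 titles that named a 1.1ST array was joined to the same title on 1.0ST. This gave 48 pairs, which took in all 96 arrays, and 28310 transcript clusters (the unit the arrays report, most often 1 gene) were present on both formats. The RNAs came from 16 adult male mice, 8 NOD/ShiLtJ (NOD) and 8 C57BL/6J (B6), with 4 mice of each strain given clozapine, an antipsychotic drug, and 4 given vehicle 3 hours before they were killed. Each mouse gave a hindbrain and a forebrain from 1 hemisphere and the intact other hemisphere, called whole brain, and the cerebellum was removed from all of them while the olfactory bulbs stayed attached. There were thus 8 pairs of arrays for each strain and region. Both strains are inbred, no mouse was left without an injection, and each region is a mixture of many cell types.

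Both formats read labelled cDNA through short probes spread along the exons of a gene. The cartridge format (1.0ST) takes 1 sample in a chamber of its own, whereas the peg format (1.1ST) carries many samples side by side on a plate and is handled as a group. The methods describe the probe content as essentially the same. Each format was run at 1 facility, in runs of its own, so the format, the facility and the runs cannot be told apart here. A brightness has no absolute scale, so levels are described below and the tests are restricted to contrasts between regions or strains inside a format.

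Array medians lay between 6.28 and 6.61 on 1.1ST and between 8.14 and 8.23 on 1.0ST (log2 intensity), and the interquartile ranges between 3.84 and 4.17 on 1.1ST and between 2.57 and 3.08 on 1.0ST. Taking each array against the group means of the other format, 47 of 48 arrays on 1.1ST and 44 of 48 on 1.0ST lay closest to the group in their own title, and the strain matched on all arrays of both formats. All exceptions were whole brain. Whole brain of NOD mouse DD656 lay closest to NOD hindbrain on both formats, and whole brain of BB685, BB687 and DD676 lay closest to forebrain on 1.0ST.

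Region genes stood out in 2 pairs, which were picked out after their values were seen. In hindbrain BB702 the formats went apart, and in forebrain DD678 both departed the same way. In hindbrain of B6 mouse BB702, the mean level of 32 telencephalic genes was 7.25 on 1.1ST, the highest of the 16 hindbrains (median 6.86), and 8.22 on 1.0ST, the second lowest (median 8.40). Tbr1, a transcription factor of cortical projection neurons, read 7.62 in it on 1.1ST, above the 4.46 to 6.33 of the other 15 hindbrains, and 6.09 on 1.0ST, below their 6.12 to 7.87. Neurod6, a cortical differentiation factor, did the same, with 6.79 against 4.80 to 6.67 on 1.1ST and 5.92 against 5.98 to 7.43 on 1.0ST. For these genes the 2 arrays under this title thus stood at opposite ends of the hindbrains. Other genes did not go apart in this way. The mean of brainstem genes lay at -0.12 from the hindbrain median on 1.1ST and at -0.06 on 1.0ST. Against the median of the other hindbrains, Slc6a3 read 0.57 and 0.56, Ttr 2.01 and 1.49, and Slc17a6 -0.15 and 0.08. After centring on group means, the 1.1ST array also correlated better with the 1.0ST array of whole brain DD676 (r = 0.32 across clusters) than with that of its own title (0.245), and over brighter clusters (0.209) its own pair was still not the best match. Such a mismatch was not particular to this pair: 16 arrays matched another array best, and other pairs correlated less over brighter clusters, down to 0.136. These values do not settle whether both arrays hold the labelled RNA. Forebrain of NOD mouse DD678 departed the same way on both formats but by unequal amounts. The mean level of 53 brainstem, glycinergic and cholinergic genes was 6.17 there on 1.1ST, against at most 5.93 in the other forebrains, and 7.97 on 1.0ST, against at most 7.86. Its departure from the forebrain median was larger on 1.1ST by 0.16. This gap was little beyond those of the other forebrains, which ran from -0.13 to 0.13. In whole brain of BB685, which was not left out, the gap was -0.17. Slc6a5, the glycine transporter of inhibitory brainstem neurons, lay 2.57 above the median of the other forebrains on 1.1ST and 0.38 above it on 1.0ST. Slc17a6, a vesicular glutamate transporter, lay 1.42 and 1.06 above. The main counts below are also given without these 2 pairs.

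**Figure D1:**
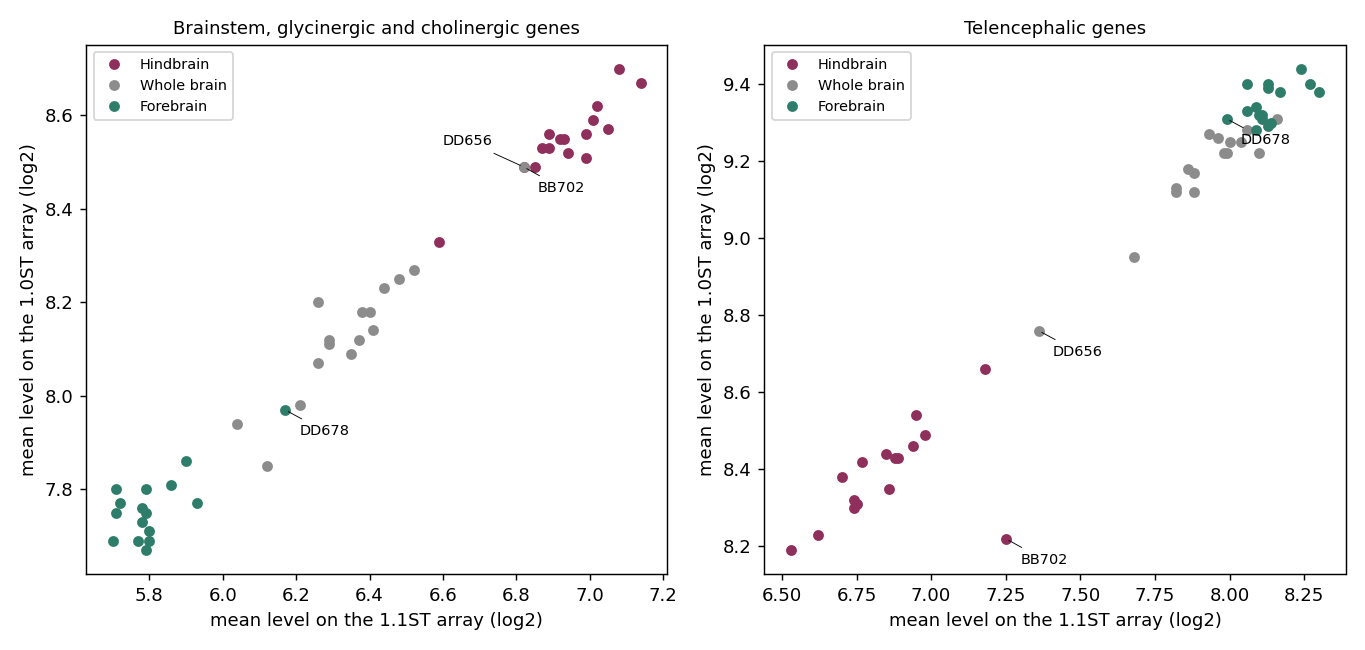
Mean log2 level of brainstem, glycinergic and cholinergic genes (left) and of telencephalic genes (right) in each RNA, on its 1.1ST array (x axis) and its 1.0ST array (y axis), with 1 point per pair of arrays coloured by region. Hindbrain BB702 lies off the trend for telencephalic genes at 7.25 on 1.1ST and 8.22 on 1.0ST, forebrain DD678 lies above the other forebrains for brainstem genes on both formats, and whole brain DD656 lies near the hindbrains.

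Levels were ordered almost alike on the 2 formats but not spaced alike. Across the 28310 clusters, the mean level over 48 arrays correlated at r = 0.960 (Spearman rho 0.976), a description across clusters that share arrays, probes and base composition. The 1.1ST level was lower by a median of 1.39 (1.1ST minus 1.0ST -1.39, quartiles -2.05 and -0.90), and 175 clusters (0.618%) were higher on 1.1ST. From the 5th to the 95th percentile the levels ran from 3.44 to 10.73 on 1.1ST and from 4.80 to 11.45 on 1.0ST, and their SD was 2.37 on 1.1ST and 2.01 on 1.0ST.

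The gap depended on the level. With the clusters cut by level into 10 groups of equal number, numbered from 1 (dimmest) to 10 (brightest), the gap was -1.38 in group 1, -2.26 in group 3 and -0.72 in group 10. Between groups 4 and 5, a step of 1 on 1.1ST went with a step of 0.602 on 1.0ST, and between groups 9 and 10 with 0.895. Below that range the relation turned: from group 1 to group 2 a step of 1 on 1.1ST went with 2.33 on 1.0ST. The scale of 1.0ST was thus narrower than that of 1.1ST in the middle and wider at the bottom. Single clusters stood apart from the general offset: Usp17ld, a deubiquitinase gene of a large family, averaged 4.03 on 1.1ST and 8.02 on 1.0ST, and Nkx2-5, a heart transcription factor, 5.13 and 8.82, whereas Pramel25 was among the few that were brighter on 1.1ST (3.26, against 2.75 on 1.0ST).

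**Figure D2:**
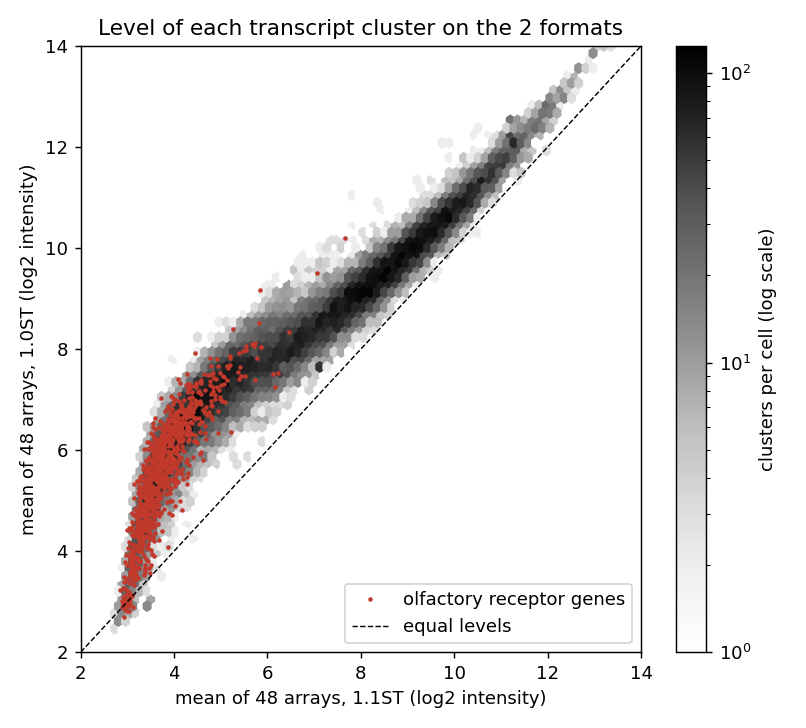
Mean log2 intensity of each of 28310 clusters over 48 arrays on 1.1ST (x axis) and on 1.0ST (y axis), shaded by the number of clusters per cell on a log scale, with olfactory receptor genes in red and equal levels on the dashed line. The cloud lies above the line nearly throughout, steep at the dim end, flatter in the middle and close to parallel with the line at the bright end, where the gap was -0.72.

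Mice of a group spread slightly more on 1.1ST. The SD within the 12 groups of strain, region and treatment (36 residual degrees of freedom) had a median of 0.134 on 1.1ST and 0.124 on 1.0ST, and 18278 clusters (64.6%) had the larger SD on 1.1ST. The order turned at the dim end: in level group 1 the median SD was 0.115 on 1.1ST and 0.150 on 1.0ST, in group 6 it was 0.152 and 0.115, and in group 10 it was 0.0952 and 0.0859.

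Whether a mouse that was high in its group on 1.1ST was also high on 1.0ST depended on the level even more. The correlation of the deviations of the 48 pairs from their group means had a median of 0.277 over all clusters. It was 0.125 in level group 4, 0.370 in group 6 and 0.60 in group 9, and it was over 0.5 in 8631 clusters (30.5%) and over 0.9 in 323. In groups 1 to 3 the medians were 0.002, 0.010 and 0.050, so in most of these clusters the rank of a mouse in its group on 1.1ST said little of its rank on 1.0ST. Among the genes with the widest spread were markers of small structures. Gabra6, a receptor subunit of cerebellar granule cells, had an SD of 1.30 on 1.1ST and 1.11 on 1.0ST with a correlation of 0.97. In hindbrain it ran from 3.94 to 10.82 with a median of 4.93 on 1.1ST, and from 5.68 to 11.72 with a median of 6.58 on 1.0ST, so that most hindbrains were low and a few very high on both formats. Ttr, the transthyretin of the choroid plexus, had SDs of 1.17 and 0.979 and a correlation of 0.93. Tph2 and Slc6a4, the synthetic enzyme and the transporter of serotonin neurons, correlated at 0.90 and 0.93.

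The pairing by title was checked on these deviations. Of the 48 arrays on 1.1ST, 32 correlated best with the 1.0ST array of their own RNA (10 of 16 hindbrains, 13 of 16 whole brains and 9 of 16 forebrains), and 40 did so over the 15940 clusters above the 40th percentile of level on both formats. The correlation with the own pair ran from -0.027 (forebrain of DD676, the dimmest 1.1ST array) to 0.657 (whole brain of DD656) with a median of 0.333, and that with other arrays had a median of -0.005. None of the 16 arrays that matched another array best matched the same mouse, and 8 matched the same region.

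Hindbrain against forebrain was called for most clusters on both formats, and the formats gave nearly the same direction for what both called. At an FDR below 0.05 (limma), 18535 clusters (65.5% of those tested, 9389 higher and 9146 lower in hindbrain) were called on 1.1ST and 21766 (76.9%, 9710 higher and 12056 lower) on 1.0ST. So many clusters differed that the FDR formula called p-values up to 0.111 on 1.1ST and 0.175 on 1.0ST. With the Benjamini-Hochberg adjustment 15286 and 17493 were called, and without the 2 pairs above 19059 and 21393. With 5 surrogate variables in each fit, as in the methods, 13110 were called on 1.1ST and 5170 on 1.0ST. These variables overlapped with region to unequal extents. The share of variance that region explained in 1 of them reached 0.661 on 1.0ST and 0.222 on 1.1ST. Both formats called 16533 clusters, which is 89.2% of the 1.1ST calls and 76.0% of the 1.0ST calls. Of these, 16404 (99.2%) ran in the same direction and 129 in opposite directions. The differences correlated at r = 0.963 across clusters (rho 0.899). Among the shared calls of one direction the median size was 0.223 on 1.1ST and 0.200 on 1.0ST, and 11036 (67.3%) were larger on 1.1ST. The cerebellum had been removed, yet of 18 cerebellar genes measured 13 (72.2%) were called higher in hindbrain on each format, where 33.2% and 34.3% of all clusters were. The part of cerebellar RNA in the other results was not tested. In bulk tissue, fewer cells of a type and less RNA per cell cannot be told apart.

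The difference between the formats was tested directly, by subtracting the 1.0ST array from the 1.1ST array of each RNA and fitting the same model to the 48 subtracted values. This format difference, the hindbrain minus forebrain difference on 1.1ST minus that on 1.0ST, was called for 3213 clusters (11.3%, 1505 positive and 1708 negative), with a median standard error of 0.0554. Without the pairs of hindbrain BB702 and forebrain DD678 it was called for 3700 clusters and without all 3 pairs of mouse BB702 for 3899. By their calls, 12753 clusters (45.1%) were close, meaning called on both formats in 1 direction with the 95% interval of the format difference within 0.25 of 0. In 2697 (9.53%) the difference was called on both formats and smaller on 1.0ST, in 37 it was called on both and smaller on 1.1ST, 190 were called on 1.1ST alone and 200 on 1.0ST alone with the format difference called, and 129 were opposite. Leaving out the 2 pairs gave 12320 close, 3088 with a smaller difference on 1.0ST, 51 with a larger one, 247 and 208 called on 1.1ST and on 1.0ST alone, and 156 opposite. The remaining clusters were called on both formats but neither close nor different (917), called on 1 format with no call for the format difference (6845), or called on neither (4542).

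The smaller classes depended on single mice and on the fit. Leaving out 1 mouse gave 2222 to 3054 clusters with a smaller difference on 1.0ST and 20 to 69 with a larger one, 124 to 293 called on 1.1ST alone, 75 to 348 on 1.0ST alone and 73 to 171 opposite, each highest without BB702. The 1.0ST-alone class was smaller by over 1.5 times without DD656 (123), DD659 (132), DD677 (107), BB685 (75), BB687 (82), BB701 (127) or BB707 (133). The class with a larger 1.0ST difference fell to 21, 22, 24, 22 and 20 without DD659, DD675, DD677, BB685 and BB687, and the opposite class to 73, 86 and 85 without BB685, BB687 and BB707. The 1.1ST-alone class had 124 without BB685. With 5 surrogate variables 1355 were smaller and 9 larger on 1.0ST, 915 and 10 were called on 1.1ST and on 1.0ST alone, and 26 were opposite.

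Genes on which the formats gave nearly the same difference, named by the size of that difference, had high levels. Slc17a6 had 11.22 to 11.60 (median 11.36) in the 16 hindbrains and 8.49 to 10.21 (median 8.82) in the forebrains on 1.1ST. On 1.0ST it had 11.45 to 11.91 (median 11.75) in hindbrain and 8.86 to 10.33 (median 9.30) in forebrain. The regions did not overlap on either format, and the difference was 2.43 ± 0.10 (SE) on 1.1ST and 2.39 ± 0.10 on 1.0ST. Aldh1a1, a retinoic acid synthetic enzyme also found in dopamine neurons, rose by 2.10 and 2.03, and Calb2, the calcium-binding protein calretinin, by 1.79 and 1.78. Nrgn, the postsynaptic calmodulin-binding protein neurogranin, was lower in hindbrain by 1.91 ± 0.10 on 1.1ST and by 1.79 ± 0.08 on 1.0ST, with 7.97 to 10.24 in hindbrain and 11.17 to 11.56 in forebrain on 1.1ST, and with 9.11 to 10.61 and 11.63 to 12.02 on 1.0ST. Plk2, a kinase induced by synaptic activity, fell by 1.92 on 1.1ST and 1.80 on 1.0ST.

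The genes with the largest format differences kept their direction and differed in size by about 1 on the log2 scale. Slc6a3, the dopamine transporter, had 9.07 to 10.82 (median 10.04) in hindbrain and 5.37 to 7.71 (median 5.74) in forebrain on 1.1ST. On 1.0ST it had 10.41 to 11.77 (median 11.11) in hindbrain and 7.84 to 8.49 (median 8.04) in forebrain. The formats lay farther apart in forebrain, where the gene was dim, than in hindbrain. The region difference was 4.05 ± 0.25 on 1.1ST and 3.02 ± 0.17 on 1.0ST (format difference 1.04 ± 0.11, FDR 1.54e-10). Kcnh3, a potassium channel subunit of forebrain neurons, had 5.56 to 7.45 (median 6.11) in hindbrain and 8.98 to 9.49 (median 9.33) in forebrain on 1.1ST, against 7.93 to 8.99 (median 8.29) and 10.14 to 10.46 (median 10.35) on 1.0ST. It fell by 3.09 ± 0.12 on 1.1ST and by 2.02 ± 0.08 on 1.0ST, and here too the formats lay farther apart in the region where the gene was dim. Its relative Kcnh4 fell by 1.93 and 0.99. Rln3, the neuropeptide relaxin-3 of a brainstem nucleus, was higher in hindbrain by 2.59 ± 0.28 on 1.1ST and 1.39 ± 0.18 on 1.0ST. Its hindbrain and forebrain values overlapped on 1.1ST, where 1 forebrain reached 7.33 against a lowest hindbrain of 7.05, and not on 1.0ST. Mab21l2, a developmental gene of the midbrain roof, had differences of 3.49 and 2.42, Sncg, the gamma-synuclein of monoamine and motor neurons, 3.07 and 2.02, and Fezf2, a factor of deep-layer cortical neurons, -3.14 and -2.07. These format differences depended on the separate scaling of the formats: with the 96 arrays quantile normalized together they were 0.04 for Slc6a3 (FDR 0.525), -0.01 for Mab21l2, -0.25 for Kcnh3, 0.47 for Rln3 and 0.50 for Sncg.

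**Figure D3:**
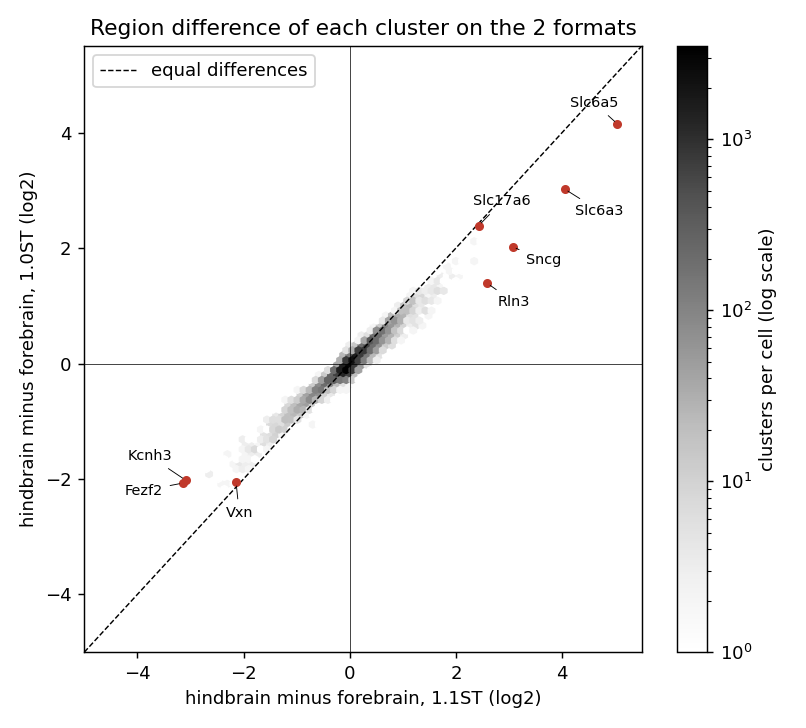
Hindbrain minus forebrain difference (log2) of each cluster on 1.1ST (x axis) and on 1.0ST (y axis), shaded by the number of clusters per cell on a log scale, with equal differences on the dashed line and 8 genes in red. Slc17a6 and Vxn lie on the line, while Slc6a3, Sncg, Rln3, Kcnh3 and Fezf2 lie on the side of the smaller 1.0ST difference.

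To measure the ratio of the 2 sizes on mice that had not picked the clusters, clusters were picked by a difference over 1 in the B6 mice and the ratio was taken in the NOD mice. Over 772 clusters the 1.0ST difference was 0.806 of the 1.1ST difference (median, quartiles 0.723 and 0.881), and with each NOD mouse taken alone the median ran from 0.783 to 0.855. The ratio was lowest for clusters of middle level, 0.721 in level group 4 and 0.725 in group 5, and was 0.888 in group 10. It depended on how the formats were scaled. When the 96 arrays were quantile normalized together, so that all had the same distribution, the ratio was 1.08, and it was 1.18 in group 5 and 0.972 in group 10. Of the 2697 clusters with a smaller difference on 1.0ST, 232 (8.60%) kept a called format difference of that sign after this step, 2215 lost the call and 250 were called with the other sign. After the step the close class counted 12280 clusters, 355 had the smaller and 1150 the larger difference on 1.0ST, and the format difference was called positive for 732 and negative for 1202.

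**Figure D4:**
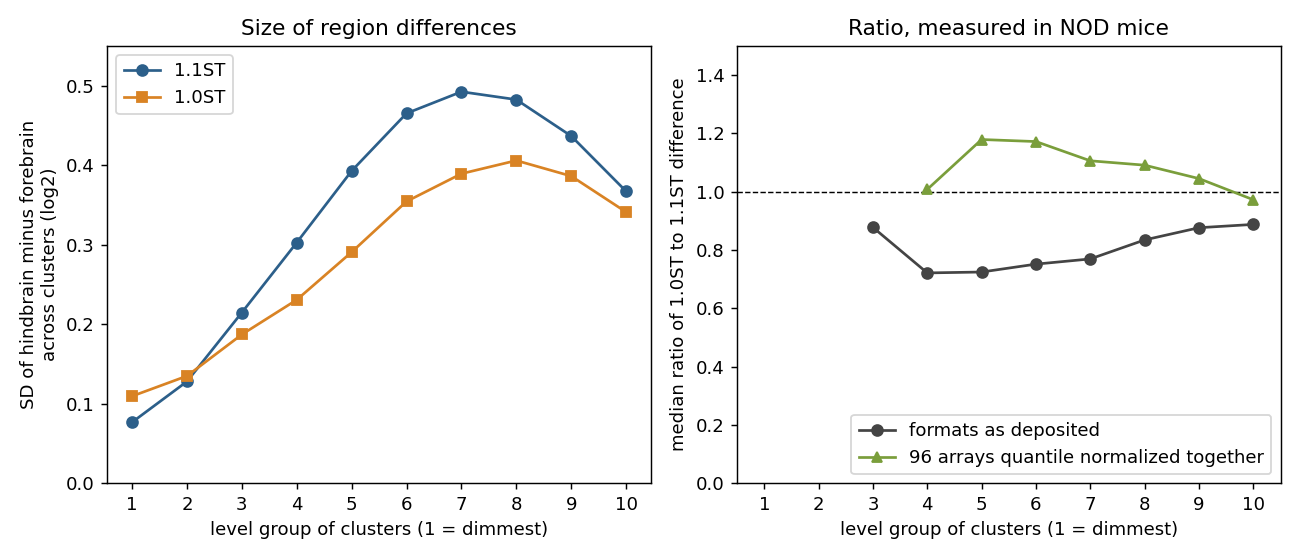
Left, SD across clusters of the hindbrain minus forebrain difference (log2) in each of 10 groups of clusters by level, on 1.1ST and on 1.0ST. Right, median ratio of the 1.0ST to the 1.1ST difference in NOD mice by level group, for clusters picked in B6 mice, with the formats as deposited and with the 96 arrays quantile normalized together. As deposited the ratio lies below 1 in the 8 level groups that held at least 20 picked clusters (0.721 to 0.888), and after the joint step it lies between 0.972 and 1.18.

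Genes of regional patterning were called on both formats, and as deposited their sizes were larger on 1.1ST. Over all 18807 genes, the format difference was called for 2509. Of 32 brainstem transcription factors, 30 were called higher in hindbrain on 1.1ST and 29 on 1.0ST (33.2% and 34.3% of all clusters were called higher), with median differences of 0.92 and 0.48, against medians near 0 over all clusters. The format difference was called for 27 of them, 26 with the smaller size on 1.0ST, and 1 was close. Gata3 was higher by 2.31 ± 0.13 on 1.1ST and 1.28 ± 0.07 on 1.0ST and Ebf3, a factor of differentiating neurons, by 2.98 and 2.23. The Hox genes, which pattern the hindbrain and spinal cord along the body axis, were less uniform: 15 of 30 were called higher on each format, and Hoxb5 differed by 1.25 on 1.1ST and 0.69 on 1.0ST. Of 32 telencephalic genes, 30 were called lower on 1.1ST and 31 on 1.0ST (32.3% and 42.6% of all clusters), with medians of -1.20 and -0.86 and 22 format differences called. Tbr1 fell by 4.14 ± 0.16 and 3.63 ± 0.12, while Neurod6 fell by 3.06 and 2.99 and was not called for the format difference (-0.06 ± 0.10). Without the hindbrain BB702 pair, whose telencephalic levels went apart, and the forebrain DD678 pair, the format difference of Tbr1 was -0.72 in place of -0.51. With the 96 arrays normalized together it was 0.71, and that of Ebf3 was -0.29, so that both turned their sign.

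Transmitter genes of brainstem and thalamus also kept their direction. Over all clusters, 33.2% were called higher and 32.3% lower in hindbrain on 1.1ST, and 34.3% and 42.6% on 1.0ST. The format difference was called for 11.3%. Of 21 glycinergic and cholinergic genes, 19 were called higher on each format, and 11 had a called format difference. Slc6a5 had 9.88 to 11.45 in hindbrain and 5.05 to 8.15 in forebrain on 1.1ST, and 10.84 to 12.22 and 7.08 to 7.79 on 1.0ST. The regions were far apart on both, by 5.04 ± 0.26 on 1.1ST and 4.15 ± 0.20 on 1.0ST. Glra1, the glycine receptor subunit, differed by 4.78 and 4.26. Of 26 monoamine genes, 19 were called higher on each format. Slc18a2, the vesicular monoamine transporter, rose by 3.59 on 1.1ST and 2.67 on 1.0ST and Tph2 by 3.15 and 2.52. All 20 thalamic genes were called higher on both formats, among them the transcription factor Tcf7l2 (2.24 and 1.89), with 11 format differences and 9 close. Of 18 striatal genes, 17 were called lower on each format, and the dopamine receptor Drd1 fell by 2.33 on 1.1ST and 1.58 on 1.0ST. The 23 hypothalamic peptides were mixed in direction: 14 were called higher and 5 lower on 1.1ST, and 13 and 8 on 1.0ST. The lower calls (21.7% and 34.8%) were fewer than the shares of all clusters, and the higher calls (60.9% and 56.5%) were more. Their median differences were 0.33 and 0.20. Among those higher in hindbrain, Oxt, oxytocin, had one of the larger relative gaps, 1.34 ± 0.15 on 1.1ST and 0.44 ± 0.10 on 1.0ST, whereas Hcrt, orexin, had 2.40 and 1.86.

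Most astrocyte and vascular genes were close. Of all 18807 genes, 9029 were close and 2509 had a called format difference. The close class has a fixed bound, so a list with small region differences falls into it more easily. As deposited, the summed sizes of the difference on 1.0ST were 0.95 of those on 1.1ST for astrocyte genes and 0.93 for endothelial and mural genes. Over all genes this ratio was 0.88. For microglial genes it was 0.76, although 12 of 17 were close, and for telencephalic genes, with 5 of 32 close, 0.75. Of 19 astrocyte genes, 16 were close, 2 had a called format difference, and the medians were 0.46 on both formats. Slc6a11, a GABA transporter of astrocytes, differed by 1.12 ± 0.06 on 1.1ST and 1.06 ± 0.05 on 1.0ST. Of 20 endothelial and mural genes, 19 were called higher in hindbrain on 1.1ST and 20 on 1.0ST, and 18 were close, among them the smooth muscle actin Acta2 (1.00 and 0.98) and vitronectin, Vtn (0.55 on both). All 26 oligodendrocyte and myelin genes were called higher on both formats, with medians of 0.85 and 0.78, but 12 had a called format difference: the myelin glycoprotein Mag differed by 1.14 and 1.05, and Gjb1, a gap junction protein of myelin, by 1.43 and 0.94. Among 21 immediate early genes, which follow recent neuronal activity, 17 were called lower in hindbrain on 1.1ST and 18 on 1.0ST. Egr3 fell by 2.33 ± 0.10 on 1.1ST and by 1.54 ± 0.07 on 1.0ST and Homer1 by 1.68 and 1.57. The 88 genes of the mitochondrial respiratory chain had small differences, with medians of 0.23 and 0.22: 81 were called higher on each format, 74 were close and 2 had a called format difference.

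Which format had the larger differences in these lists depended on the scaling. After the joint normalization the median difference was 0.72 on 1.1ST and 0.61 on 1.0ST for brainstem transcription factors and -1.08 and -1.07 for telencephalic genes. It was larger in size on 1.0ST for glycinergic and cholinergic genes (0.75 and 0.91), thalamic genes (0.85 and 0.95) and striatal genes (-1.02 and -1.08). Of the 20 thalamic genes, 1 then had a positive and 12 a negative format difference called, where as deposited 11 were positive. With 5 surrogate variables, which overlapped more with region on 1.0ST, the counts fell mainly on 1.0ST. Of the thalamic genes 19 were then called higher on 1.1ST and 8 on 1.0ST, of the brainstem factors 31 and 15, of the endothelial and mural genes 14 and 6, and of the Hox genes 14 and 0, while 29 and 20 telencephalic genes were called lower. Without the 2 pairs above, 30 and 29 brainstem factors and all 20 thalamic genes on both formats were called higher and 30 and 31 telencephalic genes lower. The format difference was then called for 25 telencephalic, 12 thalamic and 14 striatal genes.

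A larger difference on 1.0ST was found in 37 clusters as deposited, in 296 with each array centred on its median and in 1150 after the joint normalization. Arpp19, a phosphatase regulator, had a high level: 10.00 to 10.65 (median 10.30) in hindbrain and 11.29 to 11.72 (median 11.52) in forebrain on 1.1ST, against 10.12 to 10.89 (median 10.56) and 11.56 to 12.27 (median 11.96) on 1.0ST. The regions did not overlap on either format, and it fell by 1.22 ± 0.06 on 1.1ST and 1.43 ± 0.08 on 1.0ST. Atp5k, a subunit of mitochondrial ATP synthase, was higher by 0.36 ± 0.05 and 0.57 ± 0.05. It overlapped between regions on 1.1ST, where 14 of 16 mice were higher in hindbrain, and not on 1.0ST, where all 16 were. Mir10b, a microRNA gene that lies among the Hox genes, had 0.07 ± 0.04 on 1.1ST and 0.34 ± 0.08 on 1.0ST.

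Genes called on 1 format alone, with the format difference called, had small differences. Atp2a1, the calcium pump of muscle, was higher in hindbrain in all 16 mice on 1.1ST, by 0.41 ± 0.06, with 5.38 to 6.32 (median 5.53) in hindbrain and 5.09 to 5.47 (median 5.27) in forebrain. On 1.0ST it was higher in 8 of 16 mice and differed by 0.05 ± 0.06, with 7.64 to 8.40 and 7.59 to 8.10 and the same median of 7.91 in both regions. The strains were not alike: hindbrain on 1.1ST ran from 5.46 to 6.32 in B6 and from 5.38 to 5.58 in NOD. The highest hindbrains, of B6 mice BB703 and BB707, were the same on 1.1ST (6.32 and 6.29) and on 1.0ST (8.40 and 8.25). Hbb-y, an embryonic globin gene, was called on 1.0ST alone. On 1.1ST it had medians of 4.34 in hindbrain and 4.36 in forebrain (-0.01 ± 0.05), and on 1.0ST it was lower in hindbrain in all 16 mice, by 0.39 ± 0.06. Zfy2, a zinc finger gene of the Y chromosome, had 0.08 ± 0.06 on 1.1ST and -0.33 ± 0.06 on 1.0ST. Of the 200 clusters called on 1.0ST alone, 77.0% lay in the lowest 40% of levels, as did 41.05% of the 190 called on 1.1ST alone.

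The 129 clusters with opposite calls were dim, and their differences small. Their median level was 4.40 on 1.1ST and 6.84 on 1.0ST, 78.3% lay in the lowest 40% of levels, and 84 were higher in hindbrain on 1.1ST. The format difference itself was called for 83 of them. Many of these calls were weak: with the Benjamini-Hochberg adjustment 12 clusters had opposite calls, and at an unadjusted p below 0.05 on both formats 34 had opposite signs. Mup6, a major urinary protein gene, had 3.95 to 5.31 (median 4.56) in hindbrain and 3.35 to 4.86 (median 4.31) in forebrain on 1.1ST. On 1.0ST it had 4.77 to 5.96 (median 5.53) and 5.11 to 6.06 (median 5.72). The regions overlapped on both formats, 11 of 16 mice were higher in hindbrain on 1.1ST and 5 of 16 on 1.0ST, and the differences were 0.36 ± 0.09 and -0.18 ± 0.09. In NOD mice alone they were -0.06 and -0.40 and in B6 mice alone 0.78 and 0.05. Within a strain the 2 formats thus had the same sign for Mup6 but unlike sizes. The -0.06 and 0.05 were smaller than the SE of 0.09 over all mice, so their signs are uncertain. Nyx, a retinal gene, had 0.20 ± 0.05 and -0.12 ± 0.06, and its signs were opposite in NOD mice (0.19 and -0.10) and in B6 mice (0.22 and -0.14) as well. The deviations of the mice from their group means correlated at -0.02 (Mup6) and -0.04 (Nyx) between the formats.

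**Figure D5:**
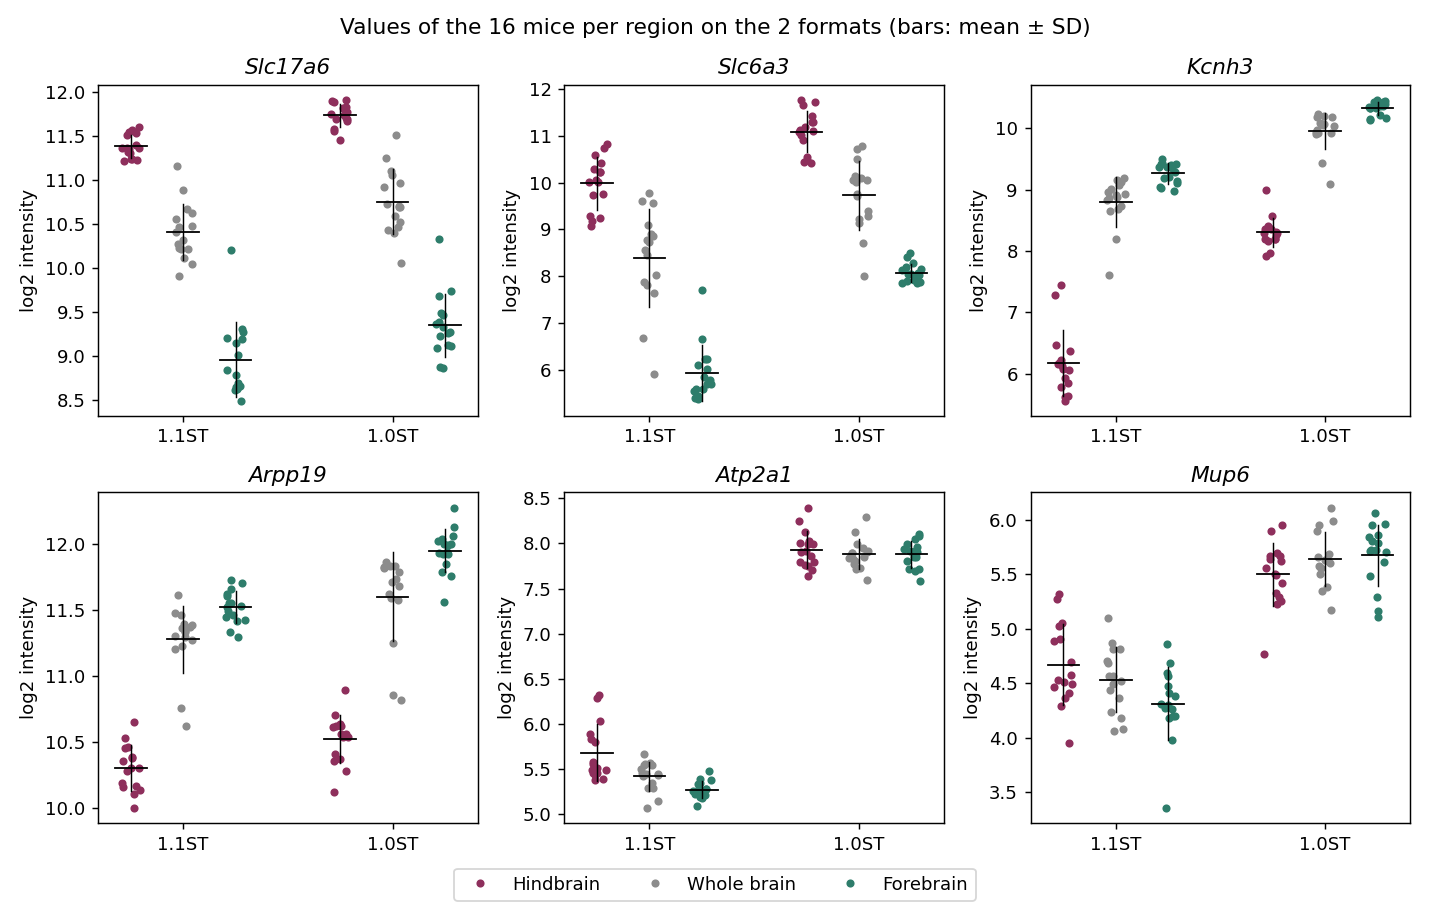
Log2 intensity of 6 genes in hindbrain, whole brain and forebrain of 16 mice on 1.1ST (left in each panel) and on 1.0ST (right), 1 point per array, with bars for the mean and SD. Slc17a6 shows nearly the same difference on both formats, Slc6a3 and Kcnh3 a smaller one on 1.0ST, Arpp19 a slightly larger one, Atp2a1 a difference called on 1.1ST alone (0.41 ± 0.06 against 0.05 ± 0.06, SE) and Mup6 differences of opposite sign.

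Among dim gene families the number called differed between the formats as deposited. Olfactory receptor genes, which serve the nasal epithelium and were at the dim end of both formats (median 3.67 on 1.1ST and 5.61 on 1.0ST), numbered 990. Of these, 433 (43.7%) were called lower in hindbrain on 1.1ST and 725 (73.2%) on 1.0ST, where 32.3% and 42.6% of all clusters were. Called higher were 11 and 12, and the median difference was -0.06 on 1.1ST and -0.12 on 1.0ST. Their deviations within groups correlated at a median of -0.024 between the formats, and the format difference was called for 22 of them. Vomeronasal and taste receptors did likewise, with 87 of 205 (42.4%) called lower on 1.1ST and 123 (60.0%) on 1.0ST. The olfactory receptor levels lay between those of level groups 1 and 2. Over all clusters of group 1, 35.4% were called lower in hindbrain on 1.1ST and 46.3% on 1.0ST. In group 2 the shares were 36.0% and 65.4%, with median differences of -0.05 and -0.10. In group 3 they were 33.6% and 62.8%, with median differences of -0.04 and -0.10. These calls moved with the scaling: after the joint normalization, 175 olfactory receptor genes were called lower and 43 higher on 1.1ST, and 409 and 49 on 1.0ST. With each array centred on its median, 899 were called lower on 1.1ST and 842 on 1.0ST, and with 5 surrogate variables 51 were lower and 57 higher on 1.1ST and 15 and 13 on 1.0ST.

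Between the strains, in forebrain, most shared calls were again larger on 1.1ST. NOD against B6 gave 3336 calls on 1.1ST (11.8%, 1466 higher and 1870 lower in NOD) and 2920 on 1.0ST (10.3%, 1490 higher and 1430 lower). Both formats called 2228, which is 66.8% of the 1.1ST calls and 76.3% of the 1.0ST calls, and 2227 of these ran in the same direction. Their median size was 0.343 on 1.1ST and 0.268 on 1.0ST, and 1853 (83.2%) were larger on 1.1ST. Without the 2 pairs above, 3138 were called on 1.1ST and 2576 on 1.0ST, and with 5 surrogate variables 5183 and 6110. The format difference was called for 128 clusters (0.452%), of which 110 had the smaller size on 1.0ST, and for 136 without the 2 pairs. After the joint normalization it was called for 51, of which 22 had the smaller and 19 the larger size on 1.0ST. The median standard error of the format difference was 0.0790 here and 0.0554 between regions. Over 208 clusters picked in hindbrain and measured in forebrain, the 1.0ST strain difference was 0.750 of the 1.1ST one (quartiles 0.663 and 0.894), with a median of 0.690 to 1.025 for each NOD mouse taken alone, and it was 1.03 after the joint normalization.

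Retsat, a retinol saturase, was alike on both formats: 8.93 to 9.28 (median 9.13) in NOD and 7.20 to 7.44 (median 7.37) in B6 on 1.1ST, and 9.81 to 10.09 (median 9.91) in NOD and 7.97 to 8.36 (median 8.26) in B6 on 1.0ST. The strains did not overlap, and the differences were 1.79 ± 0.07 and 1.71 ± 0.06. Etnppl, a phospholyase of astrocytes, was lower in NOD by 1.08 on 1.1ST and 1.06 on 1.0ST, and it was also among the close genes between regions. Ccl19, a chemokine, had 9.63 to 10.17 (median 10.06) in NOD and 6.37 to 7.23 (median 6.83) in B6 on 1.1ST, against 10.76 to 11.01 (median 10.83) and 8.62 to 9.03 (median 8.76) on 1.0ST. The strains were apart on both, by 3.18 ± 0.11 on 1.1ST and 2.06 ± 0.07 on 1.0ST (format difference 1.13 ± 0.08, FDR 2.53e-15). Ndufs5, a subunit of respiratory complex I, was lower in NOD by 2.08 ± 0.12 and 1.12 ± 0.07, and Pttg1, the securin of the cell cycle, by 2.69 and 1.94. The deviations of Ndufs5 within groups correlated at -0.01, although its strains did not overlap on either format.

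The retroviral restriction gene Fv1 was higher in NOD by 1.34 ± 0.07 on 1.1ST and 1.04 ± 0.06 on 1.0ST, and the GABA receptor subunit Gabra2, which is low in C57BL/6J, by 0.81 ± 0.08 and 0.75 ± 0.09. Of 20 measured genes with known variants in C57BL/6J or NOD, 9 were called on 1.1ST and 10 on 1.0ST, 8 on both in the same direction, and 2 had a called format difference. Over all clusters, 11.8% were called on 1.1ST, 10.3% on 1.0ST and 0.452% for the format difference. Among MHC genes, H2-K1, a class I antigen-presenting molecule, was lower in NOD by 0.72 ± 0.09 and 0.43 ± 0.06. Its strains were apart on 1.1ST (5.85 to 6.37 in NOD and 6.67 to 7.34 in B6) and overlapped on 1.0ST. Npy, the neuropeptide Y, was called on 1.1ST alone (-0.49 ± 0.11, and -0.19 ± 0.10 on 1.0ST), with strains that did not overlap on 1.1ST and did on 1.0ST. Phf11c was the 1 gene with opposite calls, at 0.27 ± 0.09 on 1.1ST and -0.24 ± 0.08 on 1.0ST, and its strains overlapped on both formats. It was the opposite call that was lost without the 2 pairs.

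Whole brain against forebrain had 5673 calls on 1.1ST (20%, 3509 higher and 2164 lower in whole brain) and 4748 on 1.0ST (16.8%, 2888 higher and 1860 lower). Both formats called 3838 (67.7% of the 1.1ST calls and 80.8% of the 1.0ST calls), all in the same direction, and 3174 (82.7%) were larger on 1.1ST. Without the 2 pairs, 6445 were called on 1.1ST and 4945 on 1.0ST. Without mouse DD656, whose whole brain lay closest to hindbrain, 4290 and 3697 were called, the fewest with any 1 mouse left out. With all pairs, the format difference was called for 80 clusters (0.283%), 80 positive and 0 negative, of which 78 had the smaller size on 1.0ST. It was called for 105 without the 2 pairs and for 56 without DD656. The direction turned after the joint normalization, with 2 positive and 18 negative. At an unadjusted p below 0.05 the format difference was positive in 1148 clusters and negative in 373 (limma), and 7 clusters had opposite signs at that level on the 2 formats. Sncg was higher in whole brain by 1.87 ± 0.12 on 1.1ST and 1.04 ± 0.08 on 1.0ST, with 8.13 to 10.40 (median 9.05) in whole brain and 6.68 to 8.41 (median 7.12) in forebrain on 1.1ST. On 1.0ST it had 9.25 to 11.01 (median 9.92) and 8.72 to 9.07 (median 8.87), so the regions overlapped on 1.1ST and did not on 1.0ST. Slc17a6 was again alike, at 1.45 ± 0.10 and 1.40 ± 0.10. Forebrain arrays served in all 3 contrasts, so these counts are not independent of each other.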

How the data were processed

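RNA of 48 brain samples was measured on 48 Affymetrix 1.1ST and 48 Affymetrix 1.0ST arrays. The authors summarized each format apart by robust multiarray average in Affymetrix Expression Console 1.1 (named in the submitters' processing notes), and deposited log2 intensities, which were used unchanged for 28310 transcript clusters. Normalizing the formats apart leaves an offset and a scale of its own to each, so levels were not tested across formats. Array number and brightness limit the precision. Of the clusters, 21207 carry 1 gene symbol, 1867 several and 5236 none in the platform annotation, and 111 on which the annotation tables differed were left unnamed. In 450 clusters all values repeat those of another cluster.

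Pairs were joined by title and groups taken from the labels. Contrasts were fitted with limma 3.58.1 (R 4.3.3, statmod 1.5.0): a mean for each strain and region, treatment as covariate, moderated variances with a trend on level, and the mouse as a random block (correlation 0.0388 on 1.1ST, 0.0441 on 1.0ST, 0.0160 for the format difference). Residuals of 2 regions of a mouse correlated at 0.0539 on 1.1ST and 0.0464 on 1.0ST, against -0.0180 and -0.0153 for different mice, and the pairing comes from the mouse numbers in the titles. P-values are two-sided. The FDR follows the formula of the study's methods, with calls below 0.05 over all clusters. The batch, scan day and hemisphere are not in the labels and were not used, whereas the study's model had the batch. Its 5 surrogate variables were kept for an alternative, because they are built apart in each format and take up different parts of the region difference. The fits were also run on simulated data, with independent noise on each format, no mouse effect and differences in a small part of the clusters. Because most clusters differed between regions here, that run does not test the FDR at these call rates.

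Named genes were taken from clusters with 1 symbol by fixed numbers per class: the largest mean size for close genes and opposite calls, the largest format difference for the others, besides list members with the largest differences. The 22 gene lists, the members and the comparisons were chosen with earlier results of these data known. Alternatives were other normalizations, a level filter, surrogate variables, another FDR, subsets of mice, each mouse left out, and 2 pairs of arrays left out. Figures and summaries used Python 3.11.15, pandas 2.3.3, scipy 1.17.1 and matplotlib 3.10.9.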

Additional observations from a re-analysis of the deposited data

Results flagged for a closer look

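Within groups of 8 arrays or pairs, 13 of 54 sets of values had a sample far from the others by a gap test that chance passes in about 1 of 20 groups. Array medians stood apart for hindbrain of NOD mouse DD658 on 1.0ST (8.21) and for forebrain of NOD mouse DD676 on 1.1ST (6.28, with an interquartile range of 3.85). The correlation of a pair after centring on the group stood apart for whole brain of BB685 (0.041) and of DD656 (0.657). The mean level of brainstem genes stood apart in forebrain of BB703 (5.93) and of DD678 (6.17) on 1.1ST and in hindbrain of BB685 on 1.0ST (8.33). Whole brain of DD656 stood apart on both formats, with 6.82 on 1.1ST and 8.49 on 1.0ST for brainstem genes and with 7.36 and 8.76 for telencephalic genes. Whole brain of BB707 stood apart for telencephalic genes on 1.0ST (8.95).

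The other results listed here are named genes whose difference itself differed between the formats by the test of the format difference (1.1ST minus 1.0ST, limma, FDR below 0.05). For hindbrain minus forebrain, the difference was larger in size on 1.1ST, with both formats called, for Rln3 (1.20), Mab21l2 (1.07), Sncg (1.05), Slc6a3 (1.04), Fezf2 (-1.07), Kcnh3 (-1.06), Sh3rf2 (-0.99) and Kcnh4 (-0.95). It was larger in size on 1.0ST for Serpina1c (-0.40), Serpina1b (-0.29), Mir10b (-0.27), Atp5k (-0.20), Mir200b (0.28), Arpp19 (0.21), BC051665 (0.17) and Gucy1b2 (0.16). It was called on 1.1ST alone for Trav4d-4 (0.41), Atp2a1 (0.36), 4930505O20Rik (0.35), Ecrg4 (-0.28), 5730522E02Rik (-0.27) and 0610012G03Rik (-0.18), and on 1.0ST alone for Snord118 (-0.31), Mir10a (-0.26), Olfr836 (-0.25), Zfy2 (0.41), Hbb-y (0.39) and Vmn1r82 (0.34). Opposite calls were found for Mup6 (0.53), Adam34l (0.43), Nyx (0.32), Gsdmcl-ps (0.27), Slco1a5 (0.25), Aurkc (0.23), Igh-VS107 (-0.30) and Vmn1r203 (-0.24).

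For NOD minus B6 in forebrain, the difference was larger in size on 1.1ST for Ccl19 (1.13), C330024D21Rik (0.65), Isoc2b (0.49), Klhl33 (0.43), 4930578G10Rik (-1.55), Ndufs5 (-0.95), 3830406C13Rik (-0.87) and Pttg1 (-0.75). It was called on 1.1ST alone for Mir154 (0.63), Kitl (0.24), Ppp1r3e (-0.39), Mroh5 (-0.38) and Npy (-0.30), on 1.0ST alone for Radx (-0.42), and with opposite signs for Phf11c (0.51). For whole brain minus forebrain it was larger on 1.1ST for Sncg (0.82) and Slc6a3 (0.81) and called on 1.1ST alone for Gata2 (0.19).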

How the results depend on the processing

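Of the alternatives for named genes, 10796 (93.6%) left direction and call as they were, 583 lost and 102 gained a call, and 48 turned the sign. Many of these alternatives only left out 1 mouse. The joint normalization alone left 322 as they were, while 39 lost and 15 gained a call and 32 turned. For the 5 surrogate variables these numbers were 334, 58, 6 and 10. With the mouse numbers as no replicate block, hindbrain against forebrain gave 18310 calls on 1.1ST, 21515 on 1.0ST and 3127 format differences, and no other call count moved past 1.5 times. Leaving out each mouse gave 17750 to 18659, 19990 to 22190 and 2507 to 3899 for these. It gave 3001 to 3290, 2534 to 3099 and 100 to 128 between strains, and 4290 to 6534, 3697 to 5104 and 55 to 99 between whole brain and forebrain. The causes below were not tested.

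With the 96 arrays quantile normalized together, the level offset was 0.01, the format difference was called for 1934 clusters between hindbrain and forebrain, 51 between strains and 20 between whole brain and forebrain, and the ratios of 1.0ST to 1.1ST were 1.08 and 1.03. Picking clusters on 1.0ST alone gave 0.844. In that joint scale the hindbrain minus forebrain format difference turned for Tbr1 (0.71), Vip (0.48), Kcnv1 (0.44), Nr4a3 (0.37), Homer1 (0.20), Actn2 (0.11), Nr4a2 (0.06), Kl (0.06), Fcrls (0.01), Mir10b (0.01), Glra1 (-0.75), Slc6a5 (-0.40), Chrna6 (-0.40), Tph2 (-0.34), Ebf3 (-0.29), Hcrt (-0.26), Gal (-0.26), Slc18a2 (-0.20), Tcf7l2 (-0.20), Otx2 (-0.16), Prkcd (-0.11), Cbln3 (-0.10), Aspa (-0.08), Gjb1 (-0.07), Tagln (-0.06), Th (-0.05), Mab21l2 (-0.01) and S100b (-0.01), and the strain format difference for Pttg1 (0.23), 3830406C13Rik (0.16), H2-K1 (0.01) and Fv1 (-0.09).

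With each array centred on its median, 5429 format differences and 283 opposite calls were found between hindbrain and forebrain, and Mir10b on 1.1ST was 0.00. The share of calls that were higher moved under centring to 32.3% (50.7% as deposited) for hindbrain against forebrain on 1.1ST, 19.2% (46.8%) for its format difference, 60.0% (43.9%) for the strains on 1.1ST, and 29.7% (61.9%) on 1.1ST and 47.6% (60.8%) on 1.0ST for whole brain against forebrain.

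With 5 surrogate variables, calls numbered 13110 on 1.1ST and 5170 on 1.0ST for hindbrain against forebrain, with 26 opposite. They numbered 5183 on 1.1ST and 6110 on 1.0ST for the strains, with 965 format differences and 2 opposite, and 3460 and 427 for whole brain against forebrain. Signs turned on 1.1ST for Mir200b (0.05), BC051665 (0.05) and Gucy1b2 (0.04), and on 1.0ST for Zfy2 (0.16), Mup6 (0.10), Hoxa5 (-0.06), Mir10b (-0.13), Hoxb5 (-0.22), Cbln3 (-0.32) and Gabra6 (-0.62). Benjamini-Hochberg left 12 opposite calls between regions and 0 between strains. The 15940 clusters above the 40th percentile of level gave 13587 calls on 1.0ST between hindbrain and forebrain, 85.2% of those tested against 76.9% in the main fit. They gave 59 opposite calls between regions and 0 between strains, and an offset of -1.05. The 21207 clusters with 1 symbol gave 84 strain format differences (0.396%), and 0 opposite strain calls were left without the 2 pairs. Without centring on group means, 6 arrays matched their own pair.

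Vehicle mice alone gave 1879 format differences between hindbrain and forebrain. They gave 1815, 1373 and 49 calls between strains on 1.1ST, on 1.0ST and for the format difference, and 3726 and 2938 for whole brain on the 2 formats. Clozapine mice alone gave 415 between hindbrain and forebrain, 1590, 1110 and 16 between strains, and 636, 691 and 3 for whole brain. NOD mice alone gave 1403 format differences between hindbrain and forebrain and 2169, 2792 and 10 calls for whole brain. B6 mice alone gave 14150 calls on 1.0ST and 748 format differences between hindbrain and forebrain and 1918, 873 and 25 calls for whole brain. Signs turned on 1.1ST for Serpina1c (-0.03) and Serpina1b (-0.15) in B6 mice, Mup6 (-0.06) in NOD mice and Adam34l (-0.04) in clozapine mice, and on 1.0ST for Mup6 (0.05) in B6 mice. These subsets hold fewer arrays. The mean of the 3 regions gave 8071, 7389 and 672 strain calls.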

Other observations

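Of 303 microRNA genes, whose products repress other transcripts, 42 (13.9%) were called higher and 102 (33.7%) lower in hindbrain on 1.1ST, where 33.2% and 32.3% of all clusters were. On 1.0ST, 56 (18.5%) were called higher and 150 (49.5%) lower, where 34.3% and 42.6% of all clusters were. The format difference was called for 24 of them, beside 11.3% of all clusters, and 4 had opposite calls. Among 86 potassium channel genes, which set the firing of neurons, the format difference was called for 32, beside 2509 of all 18807 genes. As deposited, the region difference was smaller on 1.0ST in 31 of the 32, and in 2216 of the 2509. Of 73 ribosomal protein genes, 49 were called higher and 2 lower on 1.1ST and 55 and 6 on 1.0ST. With small median differences of 0.10 and 0.11, 47 were close, beside 9029 of all 18807 genes.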
